A study of Mus musculus with 15 samples.

Results

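The granule exocytosis machinery of pancreatic islets was described here as 33 genes, listed by name, that act in the docking, priming, fusion and release of secretory granules. All 33 had a row in the table of 24060 entries, and all 33 were among the 15460 entries that passed the filter on low counts. The members were chosen for their roles, with earlier results of these data known. RNA came from whole islets of FVB/NJ mice aged 9 to 10 weeks, with 3 libraries in each of 5 groups and 15 libraries in all. WT mice carried no transgene. In hIAPP mice an insulin II promoter drove human IAPP, and in rIAPP mice it drove rodent IAPP. In hCAST mice the insulin II promoter drove human CAST, and hIAPP-hCAST mice carried the human IAPP and human CAST transgenes together, each driven by an insulin promoter. The hormone IAPP (islet amyloid polypeptide) is released with insulin by beta cells, and the human protein can aggregate whereas that of rodents does not. Calpastatin, the product of CAST, inhibits calpain proteases. The comparisons therefore ask how these genes differ with either IAPP, and whether human CAST alters the difference seen with human IAPP.

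Insulin is stored in dense-core granules that are carried to the plasma membrane by Rab GTPases and their effectors. There the granule SNARE protein synaptobrevin pairs with syntaxin and Snap25, priming factors ready the complex, complexins and tomosyns restrain or clamp it, and synaptotagmins couple fusion to calcium. After fusion, Nsf and its adaptor proteins take the SNARE complex apart for reuse. Beta cells use much of the set that neurons use at synapses, together with granule membrane proteins of endocrine cells such as the zinc transporter Slc30a8 and the phosphatase-like proteins Ptprn and Ptprn2.

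The libraries held 28287011 to 40191501 counts. The entries Rn45s, Lars2 and Mir6236, counted here together as ribosomal reads, took 94.3% of WT 2, 68.9% of WT 3 and 67.7% of rIAPP 2. This left WT 2 with 1667190 other counts and the members with 11661 counts there. Called members and all called genes, and between WT, hIAPP and rIAPP a wider list of exocytosis genes, were therefore also counted without these 3 libraries. This leaves WT 1 alone in the WT group and 2 rIAPP libraries. In that fit the spread comes from the other groups and WT 1 is assumed to vary like them, so its calls against WT rest on 1 WT library. Levels are given as CPM, the counts of a gene scaled to library size by the TMM method, in the order of libraries 1, 2 and 3. The insulin genes held 5.34% to 16.3% of the counts outside Rn45s, Lars2 and Mir6236, and Gcg stood at 15156 to 18590 CPM by group mean, so hormone genes of islets were abundant in each group. The labels do not say that the 3 libraries of a group came from separate mice, so p-values measure the spread between these libraries, which may be technical. The title numbers fall into separate ranges, 1 for the WT and hCAST libraries, 1 for the hIAPP and hIAPP-hCAST libraries and 1 for the rIAPP libraries, so whatever the ranges stand for cannot be told apart from the IAPP transgenes. In bulk RNA, fewer cells of a type and less RNA per cell cannot be told apart.

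On the scale of CPM per kilobase of gene length, the members of WT islets spanned from 405 ± 58.2 (SD, n = 3) for Slc30a8, the granule zinc transporter, to 0.849 ± 0.036 for the calcium-binding protein Doc2b. Ptprn2 followed Slc30a8 at 178 ± 7.38, then came Syt13, a synaptotagmin that does not bind calcium, at 132 ± 5.18, and Sytl4, the Rab27a effector granuphilin, at 109 ± 10.5. The WT libraries of each of these 4 genes lay apart from those of the next gene in the order. The order also depends on the gene lengths, which were derived from the deposited FPKM. The derived length of Ptprn2 was 4688 bases, whereas its annotated exons cover 8602. Likewise it was 5529 against 15054 for Cadps, 2237 against 6791 for Snap25 and 786 against 2311 for Vamp8. Stxbp5l differed the other way, at 12061 against 8521. The ranks on this scale, that of Ptprn2 included, are therefore not firm. Further down, the libraries of Syp (98.1 ± 4.47) and Rab27a (92.6 ± 3.93) overlapped, as did those of Napa (69.6 ± 11.2) and Cplx2 (65.0 ± 1.16). The SNARE genes were lower on this scale: Vamp8 stood at 54.8 ± 1.86, Snap25 at 53.2 ± 5.11, Vamp3 at 20.6 ± 1.16, Vamp2 at 12.1 ± 1.28, Stx4a at 6.14 ± 0.557 and Stx1a at 3.26 ± 0.255. Among paralogs, Cadps (31.4 ± 2.94) was higher than Cadps2 (1.83 ± 0.0185), Cplx2 was higher than Cplx1 (0.873 ± 0.455), Napa was higher than Napb (3.73 ± 0.893), and Rab3a (45.4 ± 2.03) and Rab3d (26.2 ± 1.99) were higher than Rab3b (11.3 ± 0.291). In rIAPP islets the order changed at its top, where Ptprn2 ranked 1 and Slc30a8 ranked 2, while Sytl4 moved from rank 4 to rank 14 and Cadps from rank 13 to rank 21.

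**Figure D1:**
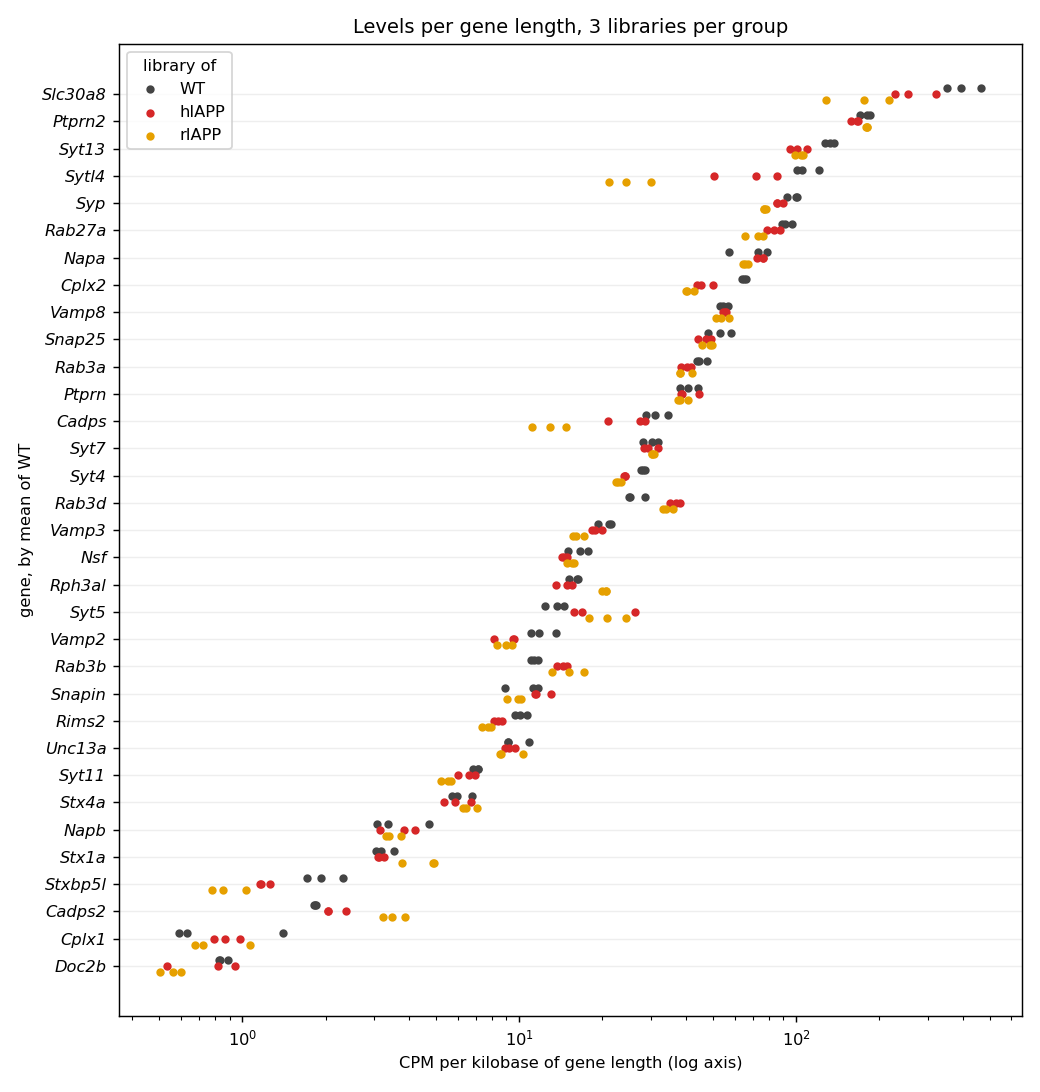
Level of each of the 33 genes in CPM per kilobase of gene length (log axis), ordered by the WT mean, with 1 point per library of WT, hIAPP and rIAPP. The rIAPP points of Sytl4, Cadps, Slc30a8 and Stxbp5l lie to the left of the WT points, those of Cadps2 and Rab3d to the right.

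In hIAPP islets the vesicle tether and clamp genes Stxbp5l, Sytl4 and Cplx2, the zinc transporter Slc30a8, the scaffold Rims2 and the synaptotagmins Syt13 and Syt4 were lower than in WT, and the small GTPase gene Rab3d was higher. The count was 1 member higher, 7 lower and 25 that did not pass the test on the TMM scale, whereas scaling to 13 pan-endocrine genes gave 9 higher and 1 lower, as it moved the median of all genes by 0.31 (log2). This scale divides by the summed counts of the 13 genes, so the most abundant of them, Chga and Scg2, weigh most. Chga had means of 10864 CPM in WT, 7228 in hIAPP and 9844 in rIAPP, and Scg2 8044, 7164 and 3928. The means of the 13-gene sum were 27114, 21796 and 20850 CPM. Under pan-endocrine scaling the 1 lower was Stxbp5l (-0.41). Sytl4 (-0.34), Slc30a8 (-0.29), Cplx2 (-0.18) and Syt13 (-0.067) kept their sign without passing, and Rims2 and Syt4 changed sign. The deposited FPKM, whose column totals include the ribosomal reads of WT 2 and WT 3, moved the median of all genes by 1.24 with a pseudocount of 1 and gave 26 members higher and 0 lower. Among all tested genes 6.27% were called higher and 5.59% lower. The median log2 fold change was -0.12 over the members and 0.02 over all genes. The libraries of both groups did not overlap for 4 members that stood higher and 14 that stood lower in hIAPP, against 2771 and 2349 of all genes. Leaving out 1 library at a time gave counts of 3 to 6 members, with 3 without WT 3 or hIAPP 3, 4 without hIAPP 2, and 5 without WT 1 or WT 2. Against WT 1 alone, without the 3 libraries rich in ribosomal reads, Stxbp5l, Cplx2 and Slc30a8 were called lower and 0 members higher.

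In rIAPP islets more members were called against WT, and the log2 fold changes ranged more widely, over -2.11 to 0.93 against -0.72 to 0.55 in hIAPP. Sytl4 fell by 2.11, Cadps by 1.29, Slc30a8 by 1.22 and Stxbp5l by 1.14 on the log2 scale, while Cadps2 was 0.93 higher and the syntaxin gene Stx1a 0.47 higher. In all, 5 members were higher, 13 were lower and 15 did not pass, where 10.7% of all tested genes were called higher and 12.6% lower. The members' median was -0.13 and that of all genes 0.01. Pan-endocrine scaling moved the median of all genes by 0.37 and gave 13 members higher and 5 lower. Under pan-endocrine scaling Sytl4, Cadps, Slc30a8, Stxbp5l and Cplx2 were lower and Cadps2, Stx1a, Rab3b, Rab3d and Rph3al higher, as with TMM, but Vamp3, Rab27a, Syt4, Syt11, Syt13 and Syp changed sign to values of 0.0052 to 0.088. Vamp2 (-0.035) and Rims2 (-0.012) kept their sign there without passing. FPKM with a pseudocount of 1 moved the all-gene median by 0.79 and gave 1 member higher and 0 lower. Between the 2 remaining rIAPP libraries and WT 1 alone, 8 members were called, with Stx1a and Cadps2 higher and Stxbp5l, Vamp3, Sytl4, Cplx2, Cadps and Slc30a8 lower. Both IAPP groups were set against the same WT libraries, so the 2 sets of differences share their controls.

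**Figure D2:**
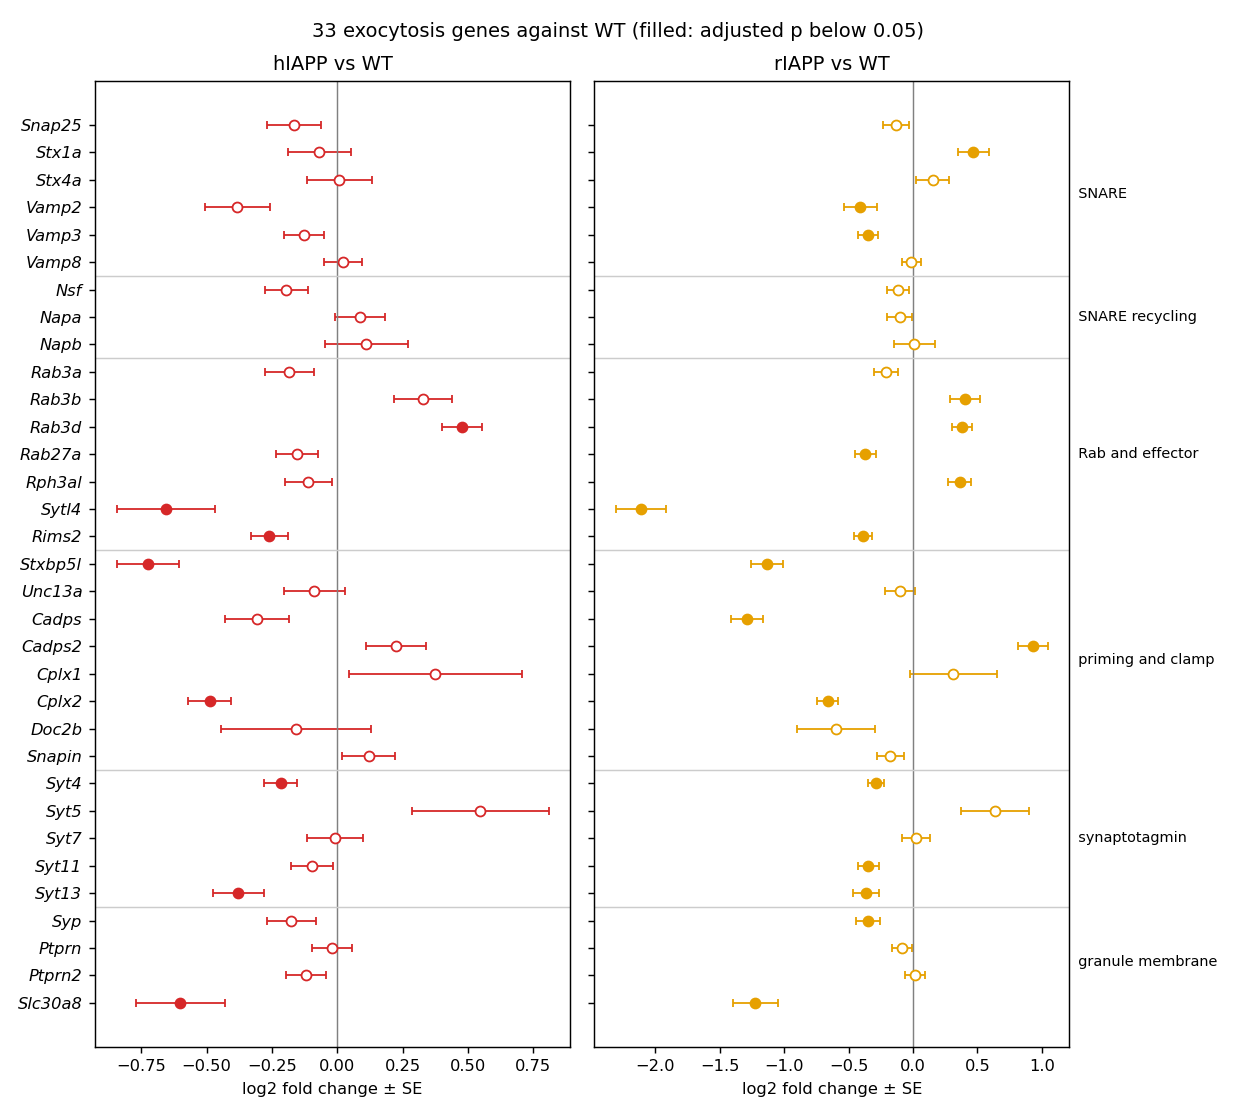
Log2 fold change (± SE, edgeR) of the 33 genes in hIAPP and in rIAPP islets against the same 3 WT libraries, grouped by role, with filled points at an adjusted p below 0.05. Sytl4 reaches -2.11 in rIAPP and -0.66 in hIAPP, on axes of different range; under pan-endocrine scaling Rims2 and Syt4 in hIAPP and Vamp3, Rab27a, Syt4, Syt11, Syt13 and Syp in rIAPP change sign.

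Granuphilin, the product of Sytl4, binds Rab27a and syntaxin and docks granules at the plasma membrane. Its level was 532, 610 and 509 CPM in WT islets, 432, 361 and 254 in hIAPP, and 151, 107 and 122 in rIAPP. The 3 groups did not overlap, and hIAPP 3 was the lowest of its group. Sytl4 was lower in hIAPP with a log2 fold change of -0.66 (SE 0.19, edgeR adjusted p = 0.037), but this call was lost when any library other than hIAPP 1 was left out (highest adjusted p = 0.11) and against WT 1 alone with the 3 ribosomal-rich libraries dropped, at a similar log2 fold change of -0.62 (SE 0.27, adjusted p = 0.267). In rIAPP it was 4.33-fold lower than in WT (log2 fold change -2.11, SE 0.19, adjusted p = 3.63e-06), a call kept whichever library was left out. The hIAPP level exceeded the rIAPP level by 1.46 (SE 0.19, adjusted p = 1.25e-04).

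Rab27a, the granule GTPase that granuphilin binds, moved less. It stood at 265, 288.1 and 272 CPM in WT and 217, 226 and 195 in rIAPP, with a log2 fold change of -0.37 (SE 0.08, adjusted p = 0.00291) that turned to 0.0052 under pan-endocrine scaling. In hIAPP its 260, 248 and 233 CPM lay below WT without passing the test (-0.15, SE 0.08). The ratio of Sytl4 CPM to Rab27a CPM was 1.87 to 2.12 in WT, 1.09 to 1.66 in hIAPP and 0.473 to 0.696 in rIAPP. It did not overlap between the 3 groups within these libraries, and neither did Sytl4 CPM alone.

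The Rab3 GTPases differed among themselves. Rab3d, known from the zymogen granules of exocrine cells as well as from endocrine granules, measured 110, 97.6 and 96.5 CPM in WT islets, 136, 143 and 147 in hIAPP and 132, 139 and 128 in rIAPP. Every library of either IAPP group lay above every WT library. The log2 fold changes against WT were 0.48 (SE 0.08, adjusted p = 0.00103) in hIAPP and 0.38 (SE 0.08, adjusted p = 0.00148) in rIAPP. Against WT 1 alone, the WT library with the most Rab3d, the fit without the 3 ribosomal-rich libraries gave 0.36 (adjusted p = 0.074) and 0.23 (adjusted p = 0.183). Rab3b measured 38.7, 36.8 and 37.5 CPM in WT and 50.1, 57.1 and 43.7 in rIAPP, higher by 0.40 (SE 0.11, adjusted p = 0.0158), a call lost without WT 3 or rIAPP 2. Its hIAPP values of 47.6, 45.4 and 49.6 CPM also lay above WT but did not pass (adjusted p = 0.0656). Rab3a, the most abundant of the 3 per gene length in WT, did not pass in either group, with log2 fold changes of -0.18 and -0.21.

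Among the other Rab effectors, Rph3al, whose product links Rab3 and Rab27 proteins to granule release, rose in rIAPP against WT. It measured 55.6, 56.0 and 52.0 CPM in WT islets, 53.2, 46.7 and 51.3 in hIAPP and 70.6, 71.0 and 68.4 in rIAPP. The rIAPP libraries lay above all others of these groups, by 0.36 over WT (SE 0.09, adjusted p = 0.00772), and hIAPP lay 0.47 below rIAPP (SE 0.09, adjusted p = 0.00107). Rims2, a scaffold of the release site, went the other way, at 76.7, 84.9 and 79.7 CPM in WT islets, 66.8, 69.0 and 64.2 in hIAPP and 61.3, 58.5 and 62.9 in rIAPP. Both IAPP groups lay below WT without overlap. The log2 fold changes were -0.26 (SE 0.07, adjusted p = 0.0273) and -0.39 (SE 0.07, adjusted p = 8.33e-04). Under pan-endocrine scaling they turned to 0.053 and -0.012, and neither passed. The hIAPP call also did not pass without WT 2, WT 3, hIAPP 1 or hIAPP 3 (highest adjusted p = 0.0951).

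Priming factors of the CAPS family, which ready docked granules for release, moved in opposite directions. Cadps measured 191, 159 and 171 CPM in WT islets, 157, 152 and 115 in hIAPP and 71.2, 61.3 and 81.4 in rIAPP. The rIAPP libraries were far below all others, a 2.44-fold lower level than in WT (log2 fold change -1.29, SE 0.13, adjusted p = 2.65e-06). The hIAPP values lay below WT too but did not pass (-0.31, SE 0.12, adjusted p = 0.118). Cadps2, the paralog, measured 11.2, 10.9 and 11.1 CPM in WT islets, 12.4, 14.3 and 12.3 in hIAPP and 20.9, 23.5 and 19.6 in rIAPP, where it was 1.91-fold higher than in WT (log2 fold change 0.93, SE 0.11, adjusted p = 1.95e-05). Again the rIAPP libraries stood apart. As a ratio of CPM per kilobase, Cadps exceeded Cadps2 by 15.9 to 18.7 times in WT, 10.2 to 13.9 times in hIAPP and 2.86 to 4.55 times in rIAPP. The size of this ratio is not firm, as the derived lengths were 5529 and 6043 bases and the annotated exons cover 15054 and 9566. The same lengths apply to all groups. Cadps was higher in hIAPP than in rIAPP by 0.98 (SE 0.12, adjusted p = 4.69e-05) and Cadps2 lower by 0.71 (adjusted p = 1.48e-04), and each of these 4 calls was kept whichever library was left out.

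Stxbp5l, a tomosyn that binds syntaxin and holds back SNARE assembly, was lower in both IAPP groups. Its level was 20.6, 23.2 and 27.8 CPM in WT islets, 15.2, 14.1 and 14.0 in hIAPP and 10.3, 9.40 and 12.4 in rIAPP, with no overlap between any of the 3 groups. The log2 fold change was -0.72 in hIAPP (SE 0.12, adjusted p = 0.00153) and -1.14 in rIAPP (SE 0.12, adjusted p = 5.76e-06), and both held when each library was left out. Cplx2, the more abundant complexin per gene length, measured 326, 315 and 319 CPM in WT islets, 246, 223 and 216 in hIAPP and 198, 198 and 212 in rIAPP. The WT libraries were close together and above all of the others. The log2 fold changes of Cplx2 were -0.49 (SE 0.08, adjusted p = 0.00185) and -0.66 (SE 0.08, adjusted p = 2.42e-05). The 3 hCAST libraries, at 302, 260 and 249 CPM, lay between WT and hIAPP, and with hCAST in place of WT the hIAPP difference of Cplx2 was -0.24 and did not pass (adjusted p = 0.0879).

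The other priming and clamp genes showed no call against WT. Unc13a, which opens syntaxin for SNARE assembly, ranged over 67.4 to 95.8 CPM across the 15 libraries, with log2 fold changes of -0.09 in hIAPP and -0.10 in rIAPP. Doc2b was scarce at 2.15 to 5.48 CPM, and its fold change of -0.60 in rIAPP carried an SE of 0.30. Snapin, which binds Snap25, measured 24.9, 22.1 and 21.9 CPM in hIAPP and 19.0, 17.4 and 19.5 in rIAPP, a difference of 0.30 (SE 0.09, adjusted p = 0.0489) that no left-out library spared (highest adjusted p = 0.224). Its exons share 15.5% of their bases with Ilf2 on the opposite strand, and the strand setting of the counting is not given in the sources used here.

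Of the 5 synaptotagmins, Syt4, Syt11 and Syt13 were lower in rIAPP than in WT, and the calcium sensors Syt5 and Syt7 did not pass. Syt13 measured 498, 477 and 516 CPM in WT islets, 412, 357 and 377 in hIAPP and 390, 372 and 396 in rIAPP. Both IAPP groups lay below WT and overlapped each other, with log2 fold changes of -0.38 (SE 0.10, adjusted p = 0.02) and -0.36 (SE 0.10, adjusted p = 0.0121). The rIAPP value of Syt13 turned to 0.015 under pan-endocrine scaling, and the hIAPP call was lost without WT 3, hIAPP 2 or hIAPP 3 (highest adjusted p = 0.0863). Syt4 measured 108, 111 and 109 CPM in WT islets, 93.8, 93.5 and 94.1 in hIAPP and 91.3, 88.8 and 87.7 in rIAPP, a small step with narrow spread. It amounted to -0.22 (adjusted p = 0.0384) and -0.29 (adjusted p = 0.00384), with the sign changing in both under pan-endocrine scaling, and the hIAPP call did not pass without any 1 of the 6 libraries (highest adjusted p = 0.102). Exons of Syt4 share 14.5% of their bases with an antisense gene. Syt11 measured 31.1, 32.4 and 32.5 CPM in WT islets, 31.8, 30.0 and 27.6 in hIAPP and 26.0, 25.3 and 23.8 in rIAPP, where it was lower than in WT with a log2 fold change of -0.35 (SE 0.08, adjusted p = 0.00506), though not under pan-endocrine scaling. hIAPP exceeded rIAPP in Syt11 by 0.25 (adjusted p = 0.0361), a call kept only without hIAPP 3.

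Syt7, the high-affinity calcium sensor of islet granules, changed little, with 196, 222 and 211 CPM in WT islets, 204, 196 and 222 in hIAPP and 214, 211 and 211 in rIAPP. Its log2 fold changes were -0.01 and 0.02, each with an SE of 0.11. Syt5 measured 21.7, 24.1 and 25.4 CPM in WT islets, 27.6, 29.6 and 45.7 in hIAPP and 36.5, 42.6 and 31.2 in rIAPP. All 6 IAPP libraries lay above WT, but with their spread neither group passed (0.55, SE 0.26, adjusted p = 0.198 and 0.64, SE 0.26, adjusted p = 0.104).

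Of the 6 SNARE genes, 0 were called in hIAPP against WT, and in rIAPP Stx1a was higher and Vamp2 and Vamp3 were lower. Snap25 measured 108, 130 and 119 CPM in WT islets, 106, 98.9 and 110 in hIAPP and 102, 111 and 109 in rIAPP, and did not pass in either (-0.17 and -0.13, each SE 0.10). Stx1a, the plasma membrane syntaxin, stood at 7.33, 6.57 and 6.32 CPM in WT islets, 6.48, 6.74 and 6.42 in hIAPP and 10.1, 7.84 and 10.2 in rIAPP. The rIAPP libraries were above the others, with rIAPP 2 the lowest of them. The excess of Stx1a was 0.47 over WT (SE 0.12, adjusted p = 0.00968, 0.0573 without WT 3) and hIAPP lay 0.54 below rIAPP (SE 0.11, adjusted p = 0.00246). The granule synaptobrevin Vamp2 measured 23.9, 29.3 and 25.6 CPM in WT islets, 20.8, 20.5 and 17.5 in hIAPP and 18.0, 19.5 and 20.4 in rIAPP. Its rIAPP level was lower, with a log2 fold change of -0.41 (SE 0.13, adjusted p = 0.0277), a call lost without WT 2, WT 3, rIAPP 1 or rIAPP 2, and the hIAPP level missed the threshold at a similar size (-0.38, adjusted p = 0.0564). The hCAST libraries stood at 23.6, 16.8 and 17.2 CPM, the first near WT 1 and the others as low as the IAPP groups, and against hCAST in place of WT the rIAPP difference of Vamp2 was 0.0062. Vamp3 was lower in rIAPP, at 33.2, 34.0 and 36.3 CPM against 45.3, 40.7 and 44.5 in WT (-0.35, SE 0.08, adjusted p = 0.00358), with the sign changing under pan-endocrine scaling. Stx4a ranged over 6.98 to 9.58 CPM and Vamp8 over 40.5 to 47.2 CPM across the 15 libraries, and neither passed in any comparison.

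Nsf and its adaptors Napa and Napb, which recycle the SNARE complex, passed in 0 of the 7 contrasts. Nsf lay between 50.4 and 67.0 CPM in all 15 libraries, Napa between 133 and 188, and Napb between 10.9 and 18.2. In hIAPP the 3 Nsf values, 54.9, 53.8 and 55.8 CPM, were all below the WT values of 62.6, 56.5 and 67.0, with a log2 fold change of -0.19 (SE 0.08, adjusted p = 0.134).

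Among granule membrane proteins, Slc30a8 was called lower in both IAPP groups and the phosphatase-like pair was not called. Slc30a8, which loads granules with the zinc that insulin crystallises with, measured 891, 671 and 755 CPM in WT islets, 610, 484 and 436 in hIAPP and 337, 244 and 412 in rIAPP. WT, hIAPP and rIAPP followed in that order without overlap. The log2 fold change was -0.60 in hIAPP (SE 0.17, adjusted p = 0.035), lost without WT 1, WT 3, hIAPP 2 or hIAPP 3 (highest adjusted p = 0.125), and -1.22 in rIAPP (SE 0.17, adjusted p = 1.17e-04), kept in each case. Ptprn2 measured 843, 866 and 798 in WT and 849, 847 and 836 CPM in rIAPP, with a log2 fold change of 0.02 (SE 0.08). In hIAPP its 786, 743 and 778 CPM lay below WT without overlap but did not pass (-0.12, SE 0.08, edgeR adjusted p = 0.329). Ptprn ranged over 129 to 158 CPM in the 15 libraries. Synaptophysin, Syp, measured 231, 249 and 250 CPM in WT and 190, 193 and 190 in rIAPP (-0.35, SE 0.09, adjusted p = 0.0134), with the sign changing under pan-endocrine scaling and the call lost without WT 3. Exons of Syp share 16.8% of their bases with an antisense gene.

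**Figure D3:**
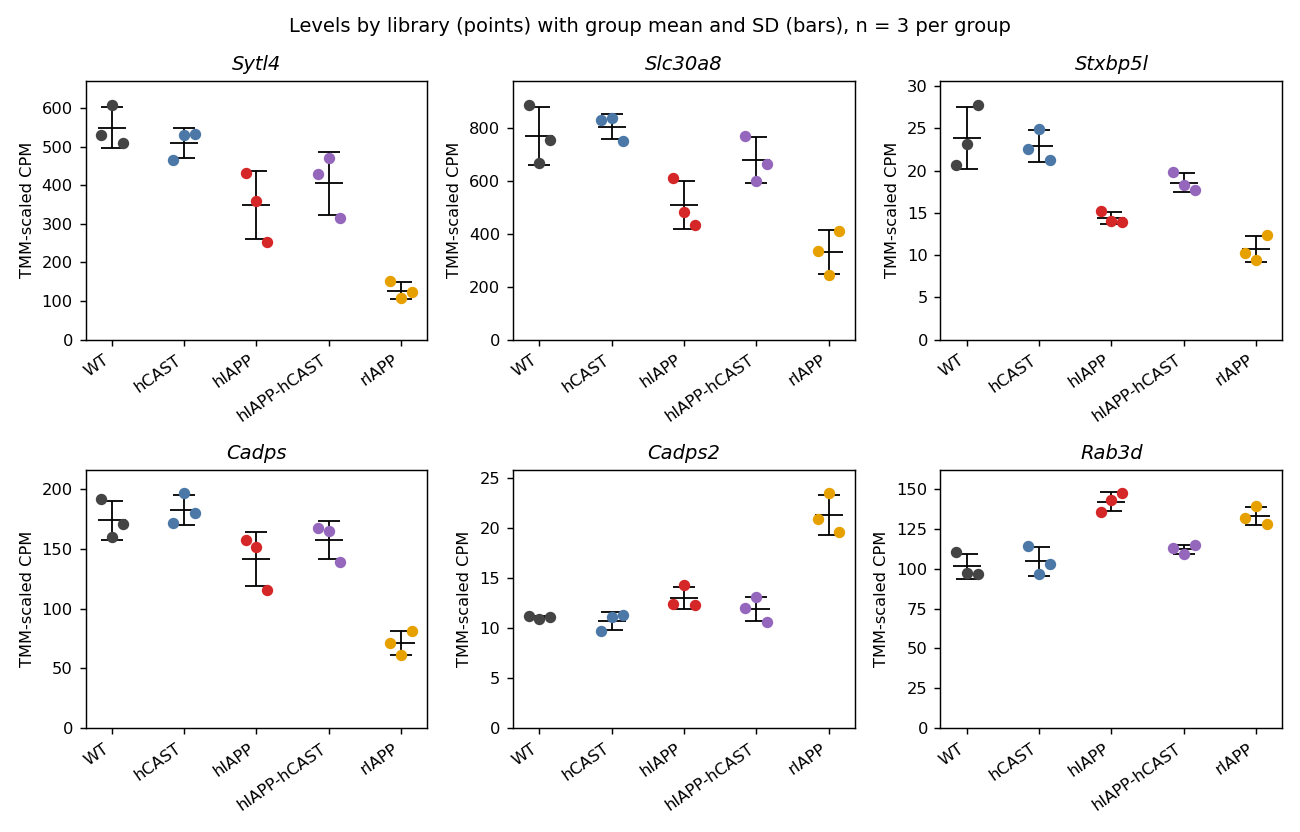
CPM of Sytl4, Slc30a8, Stxbp5l, Cadps, Cadps2 and Rab3d in each library (points) of the 5 groups, with the group mean and SD (bars, n = 3), on axes that start at 0. The rIAPP libraries are lowest for the first 4 genes and highest for Cadps2, and for Rab3d the hIAPP and rIAPP libraries lie above the other 3 groups.

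Set directly against each other, hIAPP islets had 6 members higher and 3 lower than rIAPP islets, and 24 did not pass. Of all tested genes 7.71% were called higher and 5.28% lower in this comparison. The members' median was 0.06 and that of all genes 0.01. Sytl4, Cadps, Slc30a8, Stxbp5l, Snapin and Syt11 were higher in hIAPP, and Cadps2, Stx1a and Rph3al were lower. The calls of Sytl4, Cadps, Cadps2, Stx1a and Rph3al were kept whichever library was left out. The count fell to 5 without hIAPP 1, rIAPP 1 or rIAPP 2, without the 3 ribosomal-rich libraries, and under pan-endocrine scaling, which called 2 higher and 3 lower. Slc30a8 exceeded rIAPP by 0.62 (SE 0.17, adjusted p = 0.024) and Stxbp5l by 0.41 (SE 0.12, adjusted p = 0.0256), and both missed the threshold in each of these settings (adjusted p = 0.0992 and 0.0649 without the 3 libraries).

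The difference between the groups in the summed level of the 33 genes lay mainly in a few of them. The members summed to 5082 to 5262 CPM in WT, 4133 to 4569 in hIAPP and 3708 to 3877 in rIAPP. Slc30a8 made up 32.9% and Sytl4 31.6% of the summed difference between WT and rIAPP, and 31.2% and 24.0% of that between WT and hIAPP. Without both genes the sums were 3819 to 3839 CPM in WT, 3386 to 3527 in hIAPP and 3343 to 3358 in rIAPP. Divided by the summed CPM of the 13 pan-endocrine genes, the members stood at 18.0% to 20.3% in WT, 18.9% to 20.4% in hIAPP and 17.4% to 19.3% in rIAPP, ranges that overlap. The pan-endocrine sum itself was 25919 to 28177 CPM in WT, 20730 to 22818 in hIAPP and 20089 to 21268 in rIAPP.

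**Figure D4:**
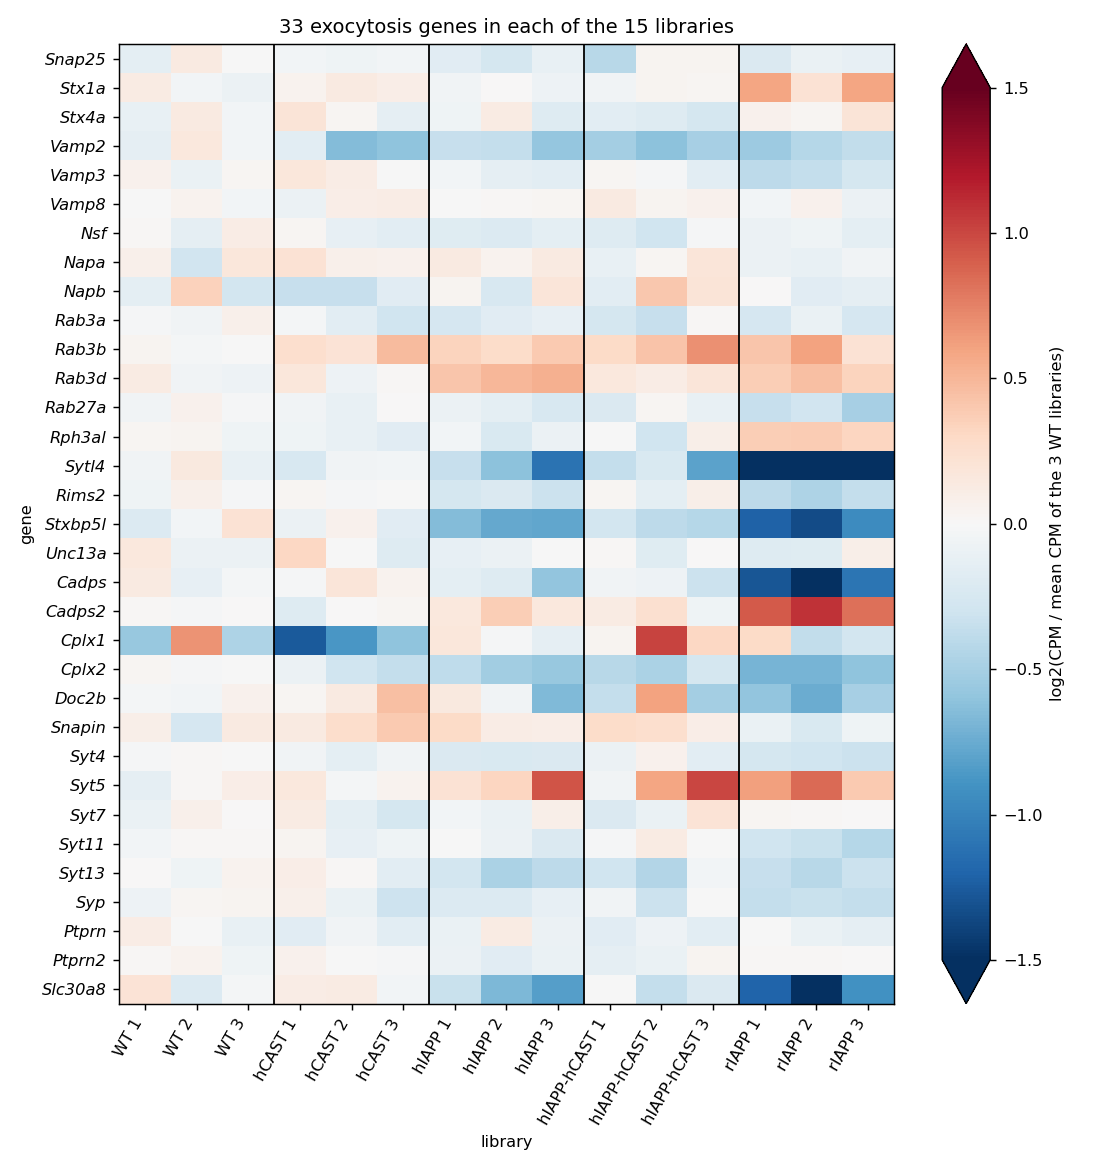
log2 ratio of each member's CPM to the mean of the 3 WT libraries, for 33 genes (rows, by role) and 15 libraries (columns, by group), with colours saturated beyond 1.5 in either direction. Sytl4, Stxbp5l, Cadps and Slc30a8 are the blue rows of rIAPP and Cadps2 its deepest red row, while Ptprn2, Syt7 and Vamp8 stay near white across the columns.

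RefSeq promoters of GRCm38.p6, 250 bases before to 50 after the start site, were matched for 22 of the 33 members. Of these 22, the 4 with the largest log2 fold changes in rIAPP against WT are shown, among which Cadps and Cadps2 moved apart while Sytl4 and Stxbp5l both fell. The windows of the minus-strand genes Sytl4 (chrX:133981763-133982062), Cadps (chr14:12823030-12823329), Cadps2 (chr6:23839372-23839671) and Stxbp5l (chr16:37384909-37385208) are printed 5′ to 3′ along the gene, with motif matches in capitals.
Sytl4: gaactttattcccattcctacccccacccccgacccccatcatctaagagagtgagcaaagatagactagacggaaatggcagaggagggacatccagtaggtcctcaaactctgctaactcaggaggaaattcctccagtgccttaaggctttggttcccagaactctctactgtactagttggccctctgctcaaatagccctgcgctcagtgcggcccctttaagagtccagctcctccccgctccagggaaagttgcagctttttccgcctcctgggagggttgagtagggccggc
Cadps: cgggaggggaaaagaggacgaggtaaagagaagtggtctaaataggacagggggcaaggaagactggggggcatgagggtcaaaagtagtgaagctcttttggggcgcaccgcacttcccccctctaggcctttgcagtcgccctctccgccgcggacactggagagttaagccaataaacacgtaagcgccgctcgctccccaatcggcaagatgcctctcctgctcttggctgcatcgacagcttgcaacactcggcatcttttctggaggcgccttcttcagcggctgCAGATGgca
Cadps2: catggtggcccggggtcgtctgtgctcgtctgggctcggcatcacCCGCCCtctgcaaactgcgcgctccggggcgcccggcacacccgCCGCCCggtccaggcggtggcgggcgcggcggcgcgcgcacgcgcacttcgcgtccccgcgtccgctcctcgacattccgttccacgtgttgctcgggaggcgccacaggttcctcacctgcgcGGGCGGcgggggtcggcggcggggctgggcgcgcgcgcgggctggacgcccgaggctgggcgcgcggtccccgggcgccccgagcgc
Stxbp5l: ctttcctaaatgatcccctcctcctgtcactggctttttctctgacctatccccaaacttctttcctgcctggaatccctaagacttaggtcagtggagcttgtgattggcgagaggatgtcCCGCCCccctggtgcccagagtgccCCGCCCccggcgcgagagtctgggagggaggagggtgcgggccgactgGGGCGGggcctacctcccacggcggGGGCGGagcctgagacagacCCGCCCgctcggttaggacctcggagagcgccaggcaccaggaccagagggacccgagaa
Motifs were searched on both strands as the GC box GGGCGG, the cAMP response element TGACGTCA, a Maf-type element TGCTGAC, whose last 4 bases can be the first 4 of the cAMP element, and the E-box CAGATG of the NeuroD type. The Cadps2 window held 3 GC boxes, the Stxbp5l window 5, the Cadps window 1 E-box and the Sytl4 window none of these letters. Over 27025 promoters of this length, the GC box was in 35.9%, the E-box in 17.2%, the Maf-type element in 4.58% and the cAMP element in 1.88%. Of the 22 member promoters, 15 held a GC box and 1 held each of the other motifs. The GC content was 79.7% for Cadps2, 65.0% for Stxbp5l, 58.0% for Cadps and 54.7% for Sytl4, beside a median of 61.3% over the member promoters and 52.7% over all promoters.

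A wider list of exocytosis genes, of which 95 passed the filter, was tested in the same fit. In hIAPP against WT 1 of them was higher and 11 were lower (median -0.09), where 6.27% of all tested genes were higher and 5.59% lower. With pan-endocrine scaling 26 of the 95 were higher and 2 lower, and with FPKM + 1, 75 and 0. Those lower included the granule glycoprotein gene Sv2a at -0.46, and the Rab27 effectors Sytl5 at -0.32 and Exph5 at -0.62, and the gene that was higher was Sytl1 at 0.48. In rIAPP against WT 7 were higher and 24 lower (median -0.09), where 10.7% and 12.6% of all tested genes were, and pan-endocrine scaling gave 40 higher and 9 lower. On the TMM scale the lower ones included Exph5 at -1.56, Mlph, another Rab27 effector, at -1.97, and Sv2a at -0.51. Those higher included Stxbp6 at 0.61 and the synaptotagmins Syt17 at 1.65, Syt15 at 1.09 and Syt16 at 0.74. Between hIAPP and rIAPP 10 were higher and 4 lower (median 0.03), where 7.71% and 5.28% of all tested genes were, with Exph5 at 0.93, Mlph at 1.43 and Rims3 at 1.42 among those higher, and Stxbp6 at -0.76, Syt17 at -1.76, Erc2 at -0.52 and Sv2b at -0.54 lower in hIAPP. Without the 3 libraries rich in ribosomal reads, 9 were higher and 3 lower between hIAPP and rIAPP. Against WT 1 alone, the medians of the 95 were then -0.10 in hIAPP and -0.11 in rIAPP.

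Human CAST alone gave no call among the members. In hCAST against WT 0 members were higher and 0 lower, where 0.0194% of all tested genes were called higher and 0% lower by edgeR. DESeq2 called 0 members. At an unadjusted edgeR p below 0.05 were 4 members, and 1133 of all 15460 tested genes. The 4 were Vamp2 (-0.41, SE 0.12, adjusted p = 0.583), Cplx2 (-0.25, SE 0.08, adjusted p = 0.6), Rab3b (0.30, SE 0.11, adjusted p = 0.615) and Snapin (0.21, SE 0.10, adjusted p = 0.678). Sytl4 measured 466, 532 and 534 CPM in hCAST, Slc30a8 831, 840 and 751, and Cadps 171, 196 and 180, which overlapped WT in each case. The members' median was -0.03, that of all genes 0.01, and 0 of the 95 wider exocytosis genes were called. FPKM moved the median of all genes by 1.26 here and gave 31 members higher and 0 lower.

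With human IAPP present, human CAST went with a lower level of Rab3d and with no other call. Rab3d measured 113, 109 and 115 CPM in hIAPP-hCAST, below the 136, 143 and 147 of hIAPP and near the 115, 96.6 and 103 of hCAST. The log2 fold change against hIAPP was -0.34 (SE 0.07, adjusted p = 0.04995), just under the threshold, and the call was lost without any 1 of the 6 libraries (highest adjusted p = 0.168). It was the 1 member called lower, with 0 higher and 32 not passing, where 0.0906% of all tested genes were called higher and 0.375% lower. DESeq2 called 2 members, 1 in each direction. At an unadjusted edgeR p below 0.05 were 5 members, Rab3d among them, and 1743 of all 15460 tested genes. The others were higher than hIAPP without passing. They were Stxbp5l at 19.8, 18.3 and 17.7 CPM (0.37 above hIAPP, SE 0.11, adjusted p = 0.168), Rims2 at 82.4, 72.5 and 85.6 (0.27, SE 0.07, adjusted p = 0.0892), Syt4 at 103, 114 and 97.9 (0.16, adjusted p = 0.315) and Slc30a8 at 772, 600 and 666 (0.41, SE 0.17, adjusted p = 0.355). Sytl4, at 430, 471 and 315 CPM, overlapped hIAPP. The members' median was 0.06, and -0.07 under pan-endocrine scaling, which moved the median of all genes by -0.14.

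In hIAPP-hCAST against hCAST, Cplx1 was higher and no other member passed. Cplx1, the complexin of fast synapses, was scarce throughout, with 40, 57 and 66 raw counts in hCAST and 104, 200 and 152 in hIAPP-hCAST, or 0.800, 1.04 and 1.26 CPM against 1.97, 3.87 and 2.37. The groups did not overlap, and the log2 fold change was 1.40 (SE 0.28, adjusted p = 0.0256). The call was lost without hCAST 1, hCAST 2 or hIAPP-hCAST 2 (highest adjusted p = 0.159), while without hIAPP-hCAST 3 the count was 2 members, 1 in each direction. WT measured 1.29, 3.06 and 1.39 CPM of Cplx1, above hCAST and overlapping hIAPP-hCAST, with WT 2 on 7 counts. Of all tested genes 0.517% were called higher and 0.233% lower here. Sv2a was the 1 gene called of the wider list, at -0.35. In the interaction, which sets the hIAPP difference among mice with human CAST against that among mice without it, 0 members passed in either direction, as did 0% of all tested genes in each direction. DESeq2 called 0 members. At an unadjusted edgeR p below 0.05 were 6 members, and 1346 of all 15460 tested genes. The 6 were Rab3d (-0.38), Cplx2 (0.35), Syt4 (0.24), Stxbp5l (0.42), Rims2 (0.25) and Cplx1 (1.02), with adjusted p from 0.342 to 0.523.

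Markers of cell types moved with the same groups. Of 12 beta cell genes 8 were lower in hIAPP and 11 in rIAPP than in WT, with summed levels of 139261 to 168892 CPM in WT, 97171 to 107387 in hIAPP and 78146 to 88127 in rIAPP, and none was at 0 in any library. The sums include Iapp itself, at means of 30270 CPM in WT, 23319 in hIAPP and 37129 in rIAPP, whose transgene encodes rodent IAPP. In the same order the means of Ins1 were 52710, 36246 and 19464 CPM, and those of Ins2 62226, 37928 and 24817. Of 11 macrophage genes 9 were higher in hIAPP, and in rIAPP 0 were higher and 1 was lower, with sums of 72.2 to 107 CPM in WT, 287.6 to 407 in hIAPP and 63.2 to 83.7 in rIAPP. Of 10 stellate and fibroblast genes 7 were higher in hIAPP and 8 in rIAPP, at 303 to 471, 927 to 1136 and 933 to 1053 CPM. Of 10 Schwann cell and neuron genes, which mark other cells with this machinery, 3 were higher and 0 lower in hIAPP and 1 higher and 1 lower in rIAPP, at sums of 101 to 121, 133 to 151 and 80.5 to 103 CPM. These sums include Th, at means of 57.5 CPM in WT, 65.4 in hIAPP and 28.5 in rIAPP. In rIAPP 8 of the 10 had a log2 fold change above 0 (median 0.37). Of 7 alpha cell genes 1 was higher in hIAPP and 2 in rIAPP, at 14351 to 16472, 16206 to 16760 and 16958 to 21364 CPM. Of 10 endothelial genes 0 were higher and 1 lower in hIAPP and 8 were higher in rIAPP, at 599 to 718 CPM in WT, 673 to 714 in hIAPP and 852 to 873 in rIAPP. Of the 13 pan-endocrine genes used for scaling 3 were lower in hIAPP, and 6 were lower and 1 higher in rIAPP. Of 7 duct genes 1 was higher in hIAPP, and 2 were higher and 1 lower in rIAPP, of 6 delta and PP cell genes 0 were called in hIAPP and 1 was lower in rIAPP, and of 2 lymphocyte genes 1 was higher in hIAPP and 0 in rIAPP. The part of these cell types in the members' differences was not tested.

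Acinar cells, which secrete digestive enzymes and surround the islets, express Rab3d and Vamp8. Summed over 25 acinar genes, the level was 13401 to 61524 CPM in WT, 37130 to 79103 in hCAST, 52433 to 114128 in hIAPP, 8091 to 117995 in hIAPP-hCAST and 82244 to 116141 in rIAPP, with log2 fold changes against WT above 0 for all 25 genes in both IAPP groups. Their median log2 fold change was 1.03 in hIAPP and 1.38 in rIAPP, and in rIAPP the libraries of all 25 lay apart from WT, though 0 were called in hIAPP and 1, higher, in rIAPP. Amy2a5 was at 0 in 1 library and no other gene of the list was. Within hIAPP-hCAST the acinar sum was lowest in library 3 at 8091 CPM and highest in library 2 at 117995 CPM. Rab3d measured 115 and 109 CPM and Vamp8 45.0 and 44.3 CPM in those libraries. Within WT the acinar sum was lowest in WT 3 at 13401 CPM and highest in WT 1 at 61524 CPM, with Rab3d at 96.5 and 110 CPM. The part of acinar cells in the Rab3d differences was not tested.

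**Figure D5:**
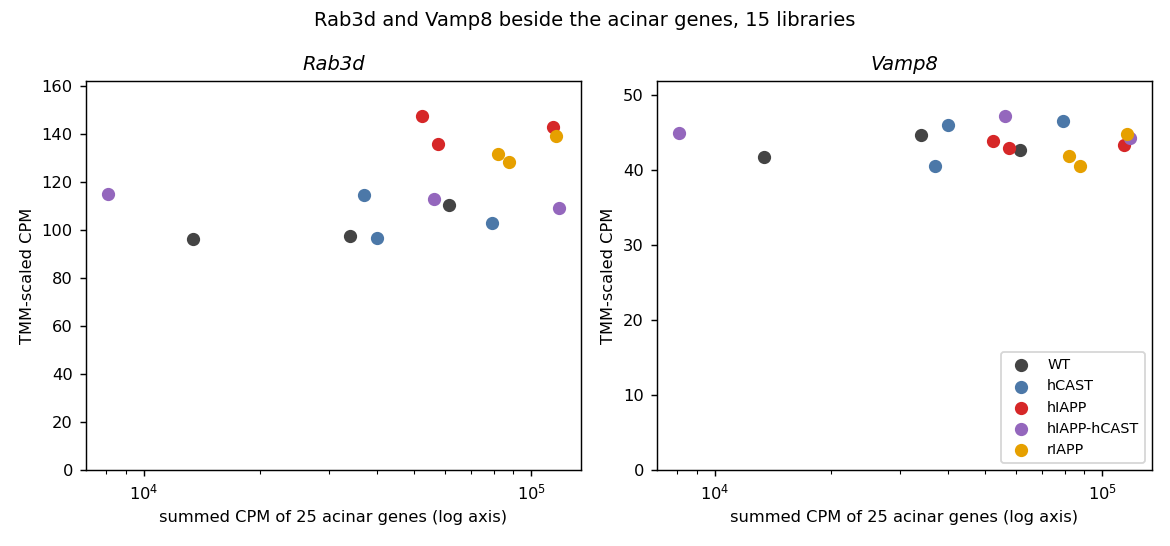
CPM of Rab3d (left) and Vamp8 (right) against the summed CPM of 25 acinar genes (log axis) in the 15 libraries, coloured by group. The hIAPP and rIAPP libraries hold the highest Rab3d levels, and the hIAPP-hCAST libraries stay at 109 to 115 CPM from the lowest to the highest acinar sum.

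In all, 20 of the 33 members were called in at least 1 of the 7 contrasts, where 30.3% of all tested genes were, and 13 in none: Snap25, Stx4a, Vamp8, Unc13a, Rab3a, Syt5, Syt7, Nsf, Napa, Napb, Doc2b, Ptprn and Ptprn2. Across the 15 libraries the ratio of the highest to the lowest CPM was 1.16 for Vamp8, 1.18 for Ptprn2 and 1.22 for Ptprn, and 5.72 for Sytl4, 3.65 for Slc30a8 and 3.20 for Cadps. By role, the members lower in rIAPP than in WT were 2 of 6 SNARE genes, 3 of 7 Rab and effector genes, 3 of 8 priming and clamp genes, 3 of 5 synaptotagmins, 2 of 4 granule membrane genes and 0 of 3 SNARE recycling genes, where 12.6% of all tested genes were lower. Those higher in rIAPP were 1 SNARE gene, 3 Rab and effector genes and 1 priming and clamp gene, where 10.7% of all tested genes were higher. In hIAPP the counts lower, in the same order of roles, were 0, 2, 2, 2, 1 and 0, against 5.59% of all tested genes, and 1 Rab and effector gene was higher, against 6.27%.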

How the data were processed

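RNA of mouse islets was measured by RNA-seq in 15 libraries. Per the labels' protocols, the RNeasy Mini Kit gave total RNA, and the library kits were TruSeq, with Ribo-Zero depletion, and NuGEN Ovation. The authors deposited raw read counts per gene symbol, and STAR, HTSeq and GRCm38 or mm10 are named, with no tool version, in the submitters' processing notes. Annotation and strand setting are not given in the sources used here. The authors also deposited FPKM, which matched the count divided by gene length and by a column total that includes the reads counted here as ribosomal (Rn45s, Lars2 and Mir6236). FPKM served to derive gene lengths and as an alternative. Library titles identified the columns, of which 0 went unused. Libraries are numbered 1 to 3 by accession order.

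The deposited counts entered edgeR 4.0.16 (R 4.3.3) and its quasi-likelihood test, under TMM scaling, the filterByExpr filter, robust dispersions and 1 coefficient per group over 15 libraries (15460 of 24060 entries tested, common biological coefficient of variation 0.132). P-values were adjusted by Benjamini-Hochberg across the 15460 entries of each contrast, and an adjusted p below 0.05 was a call. The standard error is the log2 fold change divided by the square root of F. Errors on levels are SD over 3 libraries. The code was tested on simulated data. Alternatives were RLE size factors, no filter, DESeq2 1.42.0, only the compared groups, limma 3.58.1 on log2(FPKM + 1) and log2(FPKM + 0.1), leaving out the 3 libraries rich in ribosomal reads, scaling to 13 pan-endocrine genes, hCAST in place of WT, and leaving out each library. All members could be named, with values per library for those called in at least 1 contrast. From the wider exocytosis list, up to 4 called genes with the smallest p were named per direction, apart from a gene that is not reported here. Values of uncalled members that the text gives by library were added after they were seen. The members and gene lists were chosen with earlier results of these data known. Gene positions came from GENCODE on GRCm38 and promoters from RefSeq on GRCm38.p6. Human transgene reads were not analysed here.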

Additional observations from a re-analysis of the deposited data

How the results depend on the processing

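Of the 37 calls of a member in a contrast, 36 remained with RLE size factors, 33 without the filter, 37 with DESeq2, 32 with only the compared groups, 20 of 26 with hCAST in place of WT, 19 under pan-endocrine scaling and 16 without the 3 libraries rich in ribosomal reads, and 2 and 1 with FPKM at pseudocounts of 1 and 0.1. Without those 3 libraries WT is 1 library, assumed to vary like the other groups. Depth limits Cplx1, Doc2b and Stx1a most, with 7, 8 and 15 counts in WT 2. No paired analysis was possible because no 2 groups had a title number in common.

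In hIAPP against WT the 8 members became 5 without the filter, 26 and 24 with FPKM + 1 and FPKM + 0.1, 3 without the 3 libraries, 5 with hCAST in place of WT, and 3 to 6 leaving out a library. The 1833 genes called became 12559 and 12009 with FPKM, 383 without the 3 libraries, 5605 with pan-endocrine scaling and 995 to 1414 leaving out a library. In rIAPP against WT the 18 members became 1 and 0 with FPKM and 8 without the 3 libraries, and all genes 820, 719 and 1525, with 7713 under pan-endocrine scaling. In hIAPP against rIAPP the 9 members became 0 and 0 with FPKM, 5 without the 3 libraries, 5 with pan-endocrine scaling and 5 to 8 leaving out a library, and all genes 316 and 101 with FPKM and 1302 to 1728 leaving out a library.

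In hCAST against WT FPKM gave 31 and 30 members and 13135 and 13310 genes, and DESeq2 36 genes. In hIAPP-hCAST against hIAPP the 1 member became 2 with DESeq2, 0 with only the compared groups, with either FPKM and without the 3 libraries, and 0 to 1 leaving out a library. All genes became 116 without the filter, 2.8e+02 with DESeq2, 2 with only the compared groups, 11 and 3 with FPKM, 30 without the 3 libraries, 206 with pan-endocrine scaling and 18 to 175 leaving out a library. In hIAPP-hCAST against hCAST the 1 member became 0 in the same settings other than DESeq2 and 0 to 2 leaving out a library, and all genes 258 with DESeq2, 9, 19, 13 and 53 in those settings and 36 to 356 leaving out a library. In the interaction all genes became 47 with DESeq2, 50 and 11 with FPKM and 0 to 5 leaving out a library.

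With FPKM + 1, whose totals include ribosomal reads, calls against WT reversed in hIAPP for Stxbp5l (0.47), Rims2 (1.33), Sytl4 (1.26), Syt4 (1.59), Syt13 (1.57), Cplx2 (1.42) and Slc30a8 (1.38), and in rIAPP for Vamp2 (0.75), Vamp3 (0.90), Rims2 (0.74), Rab27a (1.018), Syt4 (0.998), Syt11 (0.69), Syt13 (1.04), Cplx2 (0.71), Cadps (0.068), Syp (1.05) and Slc30a8 (0.19). Rph3al in hIAPP against rIAPP was 0.065. With FPKM + 0.1 the same genes in the same order gave 1.05, 1.67, 1.31, 1.76, 1.61, 1.499 and 1.39 in hIAPP, then 0.96, 1.08, 0.997, 1.06, 1.13, 1.022, 1.08, 0.77, 0.14, 1.09 and 0.20 in rIAPP, and 0.077 for Rph3al, with Stxbp5l in rIAPP at 0.17 and Stx1a in hIAPP against rIAPP at 0.036. Pan-endocrine scaling reversed Rims2 (0.053) and Syt4 (0.097) in hIAPP, and Vamp3 (0.028), Rab27a (0.0052), Syt4 (0.088), Syt11 (0.027), Syt13 (0.015) and Syp (0.032) in rIAPP. With hCAST in place of WT, Vamp2 in rIAPP reversed (0.0062). Relative to the median of all genes in the same setting, 0 of the 37 calls changed sign under pan-endocrine scaling or FPKM + 0.1. The number was 11 with FPKM + 1. Apart from what each setting changes by construction, the cause was not tested.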
